A study of Mus musculus with 4 samples.

Results

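The genes described here are the 39 genes of the autophagy machinery, out of 50600 genes in the deposited table. They were chosen by symbol as a fixed list of known autophagy components, with earlier results of these data known. The genes were grouped by the step at which their proteins act. All 39 were found, 1 row each. Each read at least 2.65 CPM (reads per 1000000 reads) in every library, so none was lost to the filter of 1 CPM in at least 2 libraries. The libraries were made from Py8119, a mouse mammary tumour cell line from C57BL/6 that the labels call mesenchymal-like and list as untreated. The control population (titled hygro, genotype control) was compared with a population overexpressing Mtss1, a gene for a scaffold protein that links curved membrane to actin, with 2 libraries in each group. The labels do not say which construct was used, whether the populations were clones or pools, or whether both libraries of a group were grown separately. The p-values are therefore set against a spread between libraries that may be only technical.

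Macroautophagy encloses cytoplasm in a double membrane and delivers it to the lysosome. A kinase complex around ULK1 starts the process, a class III phosphatidylinositol 3-kinase complex around Beclin 1 marks the growing membrane, and ATG9 vesicles and ATG2 lipid transfer proteins feed it. Ubiquitin-like conjugation then attaches ATG8 proteins (the LC3 and GABARAP families) to the membrane lipid, where receptors such as p62 tether the cargo. In tumour cells the pathway is known as a source of nutrients and a means of removing damaged organelles. Many of its proteins are controlled by phosphorylation and turnover, which RNA levels do not measure.

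Recovered depth was 20617788 and 22081640 reads in the control libraries and 15594209 and 16656639 reads in the overexpression libraries, so it differed with the group. As a check of the labels, Mtss1 itself was at 54.5 and 50.5 CPM in control and at 118 and 119 CPM in the overexpressing population, without separation of the introduced and native copies. Of the 7 mammary epithelial markers, Krt8 and Krt18 were expressed, Epcam, Krt5 and Krt19 were at 0 in every library, and Cdh1 and Krt14 read at most 0.12 CPM. Krt8 and Krt18 were lower with overexpression (log2 fold change -0.67 and -0.28). All 6 mesenchymal markers were expressed, of which 3 were lower, among them S100a4 (-1.51) and Fn1, and 2 higher, Twist1 (0.51) and Zeb1. The summed epithelial markers read 849 and 893 CPM in control and 601 and 603 CPM with overexpression. The mesenchymal ones read 14945 and 15060 against 12683 and 12846 CPM. Fn1 was the largest part of the mesenchymal sum (9942 CPM in control, 8102 CPM with overexpression, group means). Vim, at 4156 and 4127 CPM, did not pass the test. The summed level of the immune markers was 11.3 and 11.9 CPM in control and 10.2 and 12.4 CPM with overexpression, and Cd3e and Itgam were at 0. That of 5 endothelial markers was 0.49 and 0.368 CPM in control and 1.13 and 1.19 CPM with overexpression. The part of these marker differences in the results on autophagy genes was not tested. Bulk values cannot separate a change in the share of some cells from a change in RNA per cell.

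Most autophagy machinery genes differed little between the populations. At a limma adjusted p under 0.05, 8 of the 39 were higher with Mtss1 overexpression, 9 were lower and 22 did not pass, so 43.6% were called. Over all 12510 genes tested 66.1% were called, 31.9% higher and 34.2% lower. The median log2 fold change was 0.04 for the members and -0.01 for all genes tested, and the median size of the change regardless of sign was 0.13 against 0.28. On the log2(CPM + 1) scale 4 members changed by 1.5-fold or more, which is 10.3% of them against 21.4% of all genes. One member, Optn, passed 2-fold, against 8.27% of all genes. Control and overexpression values were fully separated for 29 members (74.4%) and for 81.6% of all genes tested.

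**Figure D1:**
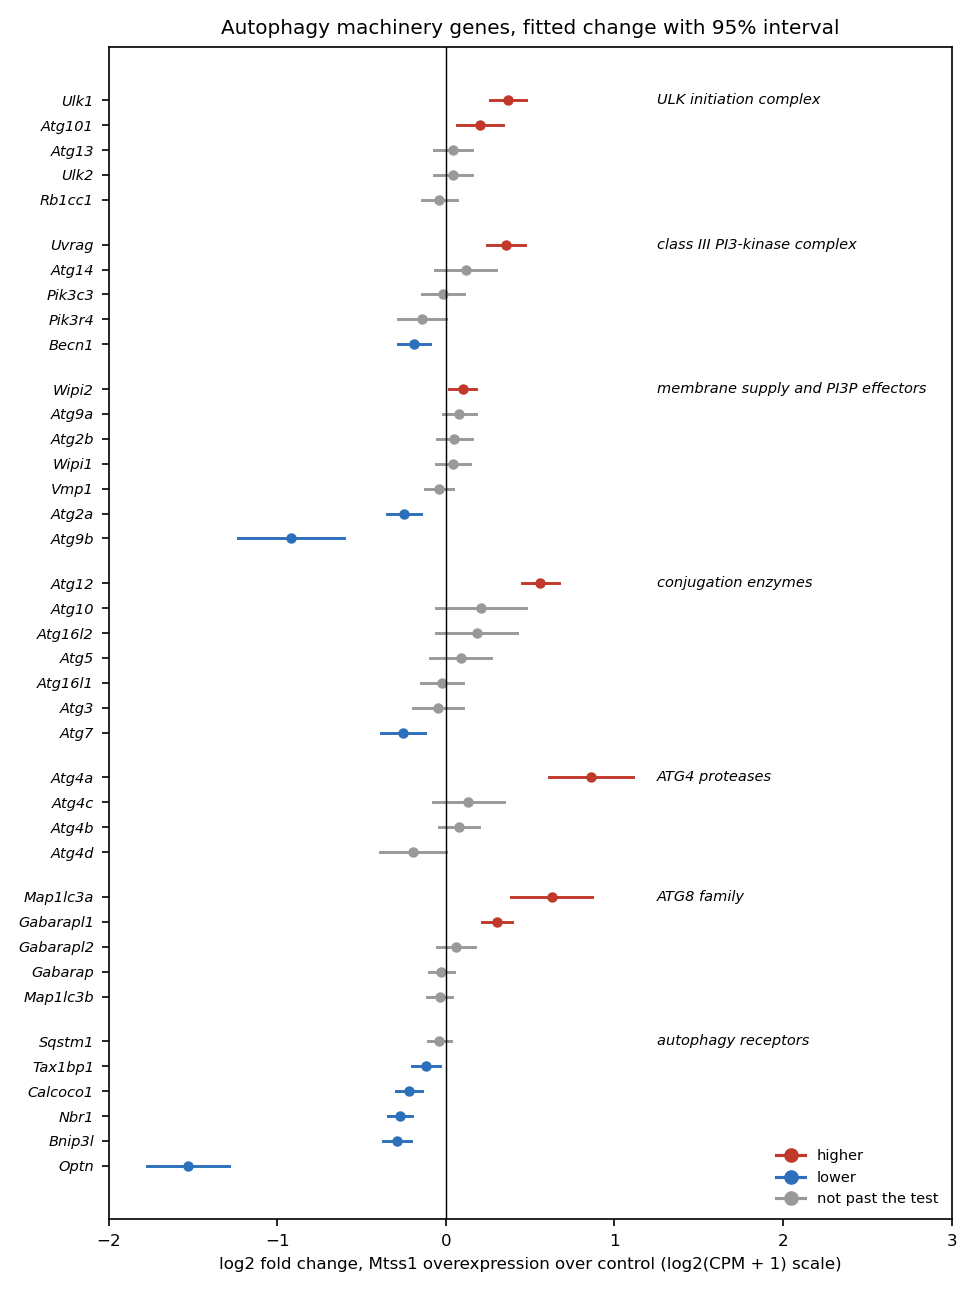
Fitted log2 fold change (Mtss1 overexpression over control, on the log2(CPM + 1) scale) of each of the 39 genes by role, with its 95% interval from limma; red marks genes called higher, blue lower and grey those not past the test. Most intervals lie close to 0, and Optn at -1.53, Atg9b at -0.92, Atg4a at 0.86 and Map1lc3a at 0.63 stand farthest from it.

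The initiation genes were mixed. Ulk1, the kinase that receives signals from mTORC1 and AMPK, rose, and so did Uvrag, a Beclin 1 partner. Becn1, the Beclin 1 gene, and the lipid transfer gene Atg2a fell by small amounts, and Atg9b, the lesser paralog of the vesicle protein gene Atg9a, fell by more. Of the 17 genes of the ULK complex, the class III kinase complex and the membrane supply step, 4 were higher, 3 lower and 10 did not pass. The share called was 41.2%, against 66.1% of all genes tested.

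In the ULK complex, the Ulk1 values were 68.5 and 64.4 CPM in control against 88.6 and 83.6 CPM with overexpression. Both overexpression libraries lay above both controls. The mean went from 66.5 ± 2.87 to 86.1 ± 3.58 CPM (SD, n = 2). This corresponds to 0.37 ± 0.05 (SE) as a log2 fold change (limma adjusted p = 1.7e-06). Its paralog Ulk2 read 65.0 and 64.2 CPM in control and 63.9 and 69.2 CPM with overexpression, and the groups overlapped. The ratio of Ulk1 to Ulk2, in CPM per kilobase of exon, was 0.971 and 0.925 in the control libraries and 1.28 and 1.11 in the overexpression libraries. With the longest transcript as length, the means were 12.7 (Ulk1) and 11.2 (Ulk2) in control and 16.5 and 11.6 with overexpression. Which of the pair stands higher in control thus depends on the length. The scaffold genes Rb1cc1 (FIP200), with a log2 fold change of -0.04 and a 95% interval of -0.14 to 0.06, and Atg13 (0.04, -0.07 to 0.15) did not pass the test. Atg101, which stabilises ATG13, read 44.7 and 42.3 CPM in control and 53.3 and 47.3 CPM with overexpression. The fitted rise was 0.20 ± 0.07 on the log2 scale (limma adjusted p = 0.0093). That call was lost without control 2 (adjusted p = 0.067) and without overexpression 1 (0.17).

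In the class III kinase complex, Becn1 read 108.4 and 108.3 CPM in control and 96.6 and 93.4 CPM with overexpression. It fell by 12.3%, with a log2 fold change of -0.19 ± 0.04 (SE, limma adjusted p = 7.7e-04). Becn1 shares 3104 exon bases with Cntd1 on the opposite strand, and Cntd1 read at most 0.744 CPM. Uvrag went the other way, from 53.1 and 52.0 CPM in control to 68.8 and 66.3 CPM with overexpression (log2 fold change 0.36 ± 0.05, limma adjusted p = 4.7e-06). The alternative Beclin 1 partner Atg14, which directs the kinase to autophagosome formation, read 19.6 to 21.5 CPM in control and 21.9 to 22.9 CPM with overexpression and did not pass (0.12, 95% interval -0.06 to 0.30). UVRAG and ATG14 occupy the complex in mutually exclusive forms. The catalytic subunit gene Pik3c3 (-0.02, -0.14 to 0.11) did not pass either. Pik3r4, the regulatory subunit gene, had a log2 fold change of -0.14 and did not pass (limma adjusted p = 0.075), although it did without control 1 (-0.24, adjusted p = 0.0081).

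Among genes for membrane supply, Atg9b read 6.25 and 6.58 CPM in control and 2.65 and 3.21 CPM with overexpression. With both overexpression libraries below both controls, it fell by 54.3% (log2 fold change -0.92 ± 0.15, limma adjusted p = 1.5e-05). Atg9b shares 294 exon bases with Nos3 on the opposite strand, which read 0.23 to 0.758 CPM in control and 1.01 to 1.79 CPM with overexpression, and the sources used here do not say whether the counting used strand. Atg9a, the more abundant paralog, read 75.7 to 76.6 CPM in control and 80.5 to 80.7 CPM with overexpression and did not pass (0.08, limma adjusted p = 0.15). It passed as higher when the columns were rescaled to equal totals (0.12, adjusted p = 0.035). Atg2a read 99.98 and 97.2 CPM in control and 85.8 and 79.9 CPM with overexpression, a log2 fold change of -0.25 ± 0.05 (limma adjusted p = 1.1e-04). Its paralog Atg2b did not pass (0.05, 95% interval -0.05 to 0.15).

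The WIPI proteins read the lipid made by the class III kinase and recruit the conjugation machinery. Wipi2 read 153 and 157 CPM in control and 167 and 165 CPM with overexpression, the smallest change among the members called (log2 fold change 0.10 ± 0.04, limma adjusted p = 0.03). The call was lost without control 1 (adjusted p = 0.18), without overexpression 1 (0.096) and without overexpression 2 (0.066). Wipi1 did not pass (0.04, 95% interval -0.06 to 0.14). The endoplasmic reticulum scramblase gene Vmp1, at 408 to 453 CPM in control and 412 to 424 CPM with overexpression, did not pass either (-0.04). Without control 2 it did (-0.12, limma adjusted p = 0.011). The microRNA gene Mir21a lies within Vmp1 exon sequence, so reads of its longer primary transcript could be counted to Vmp1.

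**Figure D2:**
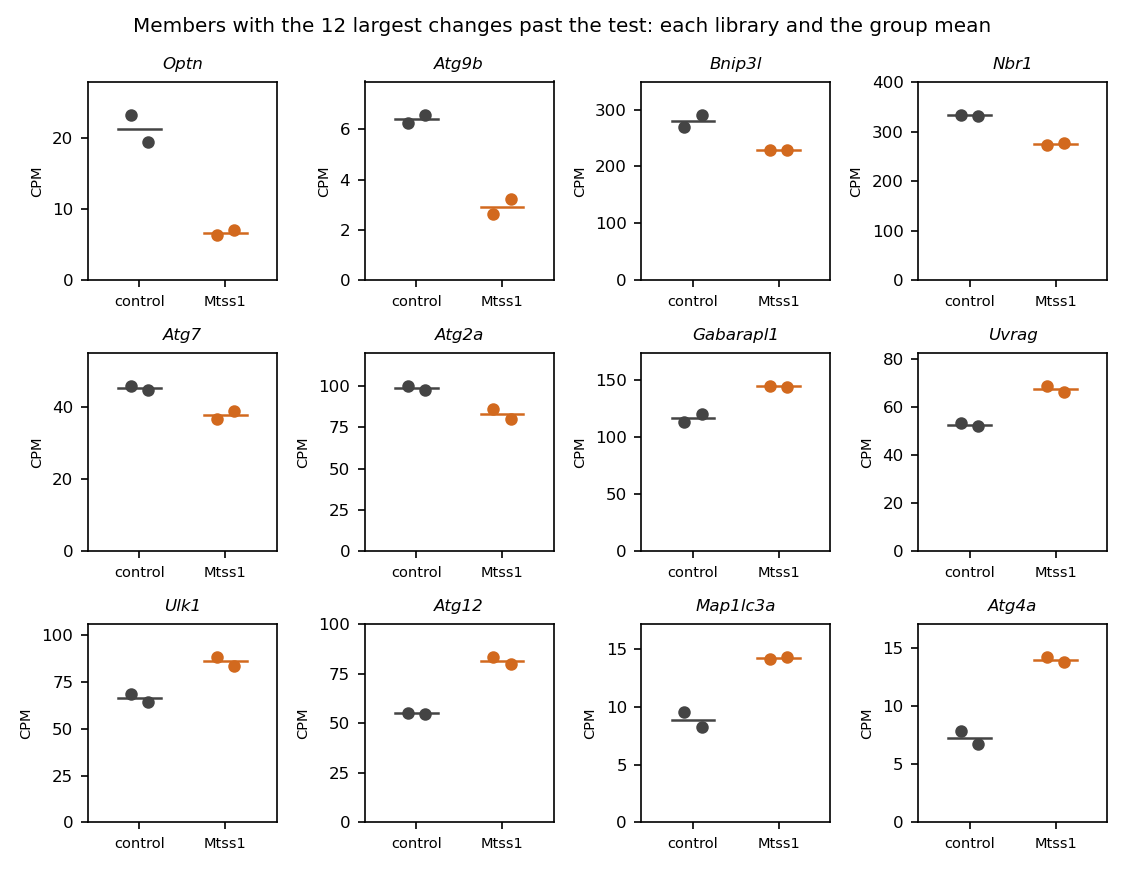
CPM (vertical axes, from 0, a separate scale per gene) in each library for the 12 genes with the largest changes past the test, with points for single libraries and a line for the mean of the 2 libraries of a group. The control and overexpression points do not overlap for any of the 12, which were picked by their change, nor for 81.6% of all genes tested. The steepest differences are those of Optn (23.3 and 19.4 against 6.37 and 7.08 CPM) and Atg9b.

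In the conjugation step, some genes of several small families moved while others of the same family did not pass. Atg12, Atg4a, Map1lc3a and Gabarapl1 rose and Atg7 fell, and the other 11 of the 16 conjugation genes did not pass the test. The share called was 31.25%, below the 66.1% of all genes tested. ATG7 is the activating enzyme that both conjugation reactions share. ATG12 is the ubiquitin-like protein that is joined to ATG5, and the ATG4 proteases cut ATG8 proteins before and after their use.

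Atg12 read 55.4 and 54.6 CPM in control and 83.6 and 79.7 CPM with overexpression. The mean rose 1.48-fold, from 55.0 ± 0.548 to 81.7 ± 2.75 CPM (SD, n = 2). Its log2 fold change was 0.56 ± 0.05, and its limma adjusted p, 2.6e-09, was the lowest among members called higher. Its conjugation partner Atg5 read 20.9 and 20.4 CPM in control and 22.9 and 21.2 CPM with overexpression (0.09, 95% interval -0.09 to 0.27, not past the test). Per kilobase of exon, Atg12 stood at 0.808 and 0.815 times Atg5 in the control libraries and at 1.12 and 1.14 times with overexpression. With the longest transcript as length, the means were 11.5 (Atg12) and 8.79 (Atg5) CPM per kilobase in control. With overexpression they were 17.1 and 9.38. Which of the pair stands higher in control thus depends on the length. Atg7 read 45.9 and 44.7 CPM in control and 36.7 and 39.0 CPM with overexpression. It fell by 16.4%, with a log2 fold change of -0.25 ± 0.06 (limma adjusted p = 0.0014).

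The E2-like enzyme genes Atg3 (log2 fold change -0.05, 95% interval -0.19 to 0.10) and Atg10 (0.21, -0.06 to 0.47) did not pass. The same held for Atg16l1, which encodes the scaffold that places the conjugate on the membrane (-0.02, -0.15 to 0.10). Its paralog Atg16l2 read 11.8 and 15.4 CPM in control and 14.9 and 15.9 CPM with overexpression. It did not pass with all libraries (0.18, limma adjusted p = 0.17) and did without control 2 (0.36, adjusted p = 0.015).

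Promoter windows of 300 bases around the gene start were available from RefSeq (GRCm38.p6) for 32 of the 39 genes. They were searched for CACGTG, the palindromic E-box at the core of the CLEAR element that TFEB, a transcription factor of lysosome and autophagy genes, binds. The motif reads the same on both strands. It was found in 4 of the 32 genes, Atg3, Atg5, Atg7 and Atg14, and the 32 genes have 38 windows between them. Of all 32851 promoter windows, 7.15% held it, and the difference was not tested. The longer form TCACGTGA, which contains it, was found in Atg3 alone among the members and in 0.974% of all windows. The stretches with the motif are shown, 5′ to 3′ on the gene's strand with CACGTG in capitals, because these are the core conjugation and initiation genes whose promoters carry the letters.
Atg3: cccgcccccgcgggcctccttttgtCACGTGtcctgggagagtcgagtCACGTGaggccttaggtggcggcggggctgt
Atg5: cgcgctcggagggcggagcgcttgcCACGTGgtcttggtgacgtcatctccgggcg
Atg7: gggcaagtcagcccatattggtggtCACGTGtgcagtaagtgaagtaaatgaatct
Atg14: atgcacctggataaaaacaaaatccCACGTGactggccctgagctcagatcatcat
The Atg3 stretch lies at chr16:45158710-45158788 on the plus strand, with its 2 motifs starting 94 and 71 bases before the gene start. Those of Atg5 (chr10:44268300-44268355) and Atg7 (chr6:114670939-114670994) are also on the plus strand, with motifs 14 and 132 bases before the start. That of Atg14 (chr14:47568405-47568460) is on the minus strand and runs over the start itself. GENCODE M21 places the outermost starts of Atg3 (45158785), Atg7 (114643097) and Atg14 (47570649) upstream of these RefSeq starts, from which the distances are counted. Of these 4 genes Atg7 fell and Atg3, Atg5 and Atg14 did not pass the test. A match of letters is a description of the window and not evidence of a bound site.

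The ATG4 family has 4 members. Atg4a read 7.84 and 6.72 CPM in control and 14.2 and 13.7 CPM with overexpression. It rose 1.92-fold, with a log2 fold change of 0.86 ± 0.12 (limma adjusted p = 1.5e-06), the largest rise among the 39 genes. ATG4A prefers GABARAP-type substrates, whereas ATG4B acts on all ATG8 proteins. Atg4b, at 68.5 and 74.6 CPM in control and 71.7 and 79.6 CPM with overexpression, did not pass (0.08), but did without overexpression 1 (0.15, limma adjusted p = 0.042). Per kilobase of exon Atg4a stood at 0.356 and 0.28 times Atg4b in control and 0.618 and 0.537 times with overexpression, so it remained the lower of the pair in every library. Atg4c did not pass (0.13, 95% interval -0.08 to 0.35). Atg4d did not pass (-0.20, limma adjusted p = 0.073), and it shares 1405 exon bases with Kri1 on the opposite strand, which read 53.0 to 55.8 CPM in control and 43.1 to 48.4 CPM with overexpression. The part of those reads in the Atg4d value was not tested.

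Of the 5 ATG8 genes, 3 did not pass the test, among them Map1lc3b and Gabarap, which had the highest CPM. Map1lc3b, the gene of the widely used autophagosome marker LC3B, read 247 and 241 CPM in control and 240.4 and 235 CPM with overexpression (log2 fold change -0.04, 95% interval -0.11 to 0.04). Gabarap read 208 and 211 CPM in control and 205 and 207 CPM with overexpression (-0.03, -0.10 to 0.05). Neither passed the test, and for both genes both overexpression libraries lay slightly below both controls in the values as deposited. With the columns rescaled to equal totals the log2 fold changes were 0.001 (Map1lc3b) and 0.012 (Gabarap), so their sign is not settled. Gabarapl2, the GATE-16 gene, read 65.6 and 62.6 CPM in control and 64.5 and 69.5 CPM with overexpression, with overlapping groups (0.06, -0.05 to 0.18).

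The other two ATG8 genes rose. Gabarapl1 read 113 and 121 CPM in control and 145 and 144 CPM with overexpression, a log2 fold change of 0.31 ± 0.04 (SE, limma adjusted p = 1.7e-06). Map1lc3a, the LC3A gene, read 9.55 and 8.24 CPM in control and 14.2 and 14.3 CPM with overexpression, a 1.6-fold rise (0.63 ± 0.12, limma adjusted p = 5.2e-05). Both overexpression libraries lay above both controls for each gene. As a share of the family sum in CPM per kilobase of exon, Gabarap went from 47.3% and 47.7% in the control libraries to 43.6% in both overexpression libraries. Gabarapl1 went from 23.7% and 24.9% to 28.3% and 27.8%, and Map1lc3a from 3.40% and 2.90% to 4.71% and 4.73%. These shares depend on the exon length assigned to each gene. With the longest transcript in place of all exons, Map1lc3b took 17.9% to 18.4% of the family in control in place of 13.3% to 13.8%, and the order of the 5 genes was the same.

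**Figure D3:**
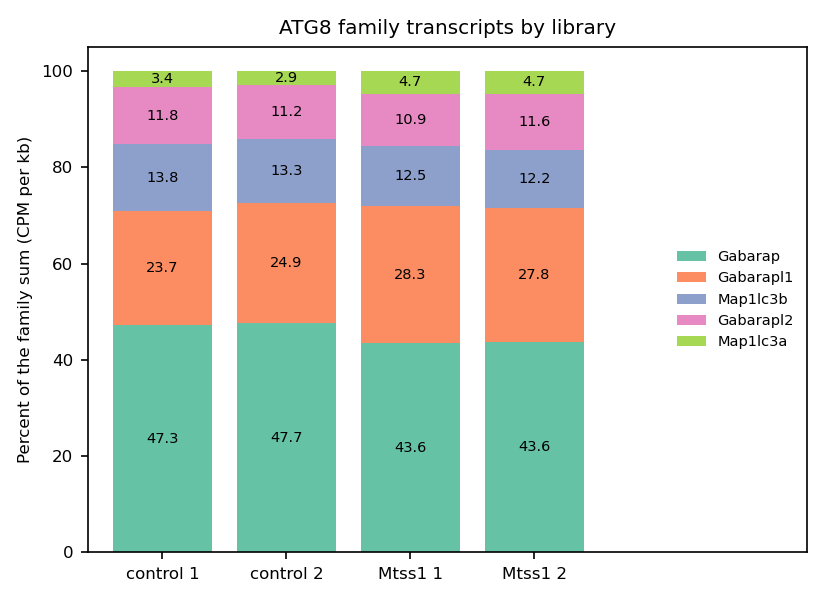
Share of each ATG8 family gene in the family sum (percent, CPM per kilobase of exon) in the 4 libraries. Gabarap is the largest part of every bar, at 47.3% and 47.7% in control and 43.6% with Mtss1 overexpression, and the Gabarapl1 and Map1lc3a parts are larger in both overexpression bars.

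Of the 6 autophagy receptor genes among the members 5 fell with Mtss1 overexpression, and none rose, where 34.2% of all genes tested were lower. The 5 were Optn, Bnip3l, Nbr1, Calcoco1 and Tax1bp1. Receptor genes outside the members went both ways, such as Bnip3 (log2 fold change -1.02) and Ccpg1 (0.36). Their list, described below, also holds cofactors, and in it 7 genes were lower, 4 higher and 10 did not pass. Sqstm1 did not pass, and the call of Tax1bp1 depended on the setting. In the values as deposited, both overexpression libraries read below both control libraries for all 6 genes and for 41.9% of all genes tested. For Sqstm1 this depended on the scaling. With the columns rescaled to equal totals its groups overlapped and its log2 fold change was -0.0008. Optn encodes optineurin, a ubiquitin-binding receptor for mitochondria and intracellular bacteria that also binds linear ubiquitin in NF-kB signalling. Bnip3l encodes NIX, a mitophagy receptor in the outer mitochondrial membrane.

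Optn (chromosome 2, 5020642 to 5064051, minus strand, GRCm38) read 23.3 and 19.4 CPM in control and 6.37 and 7.08 CPM with overexpression. The mean went from 21.3 ± 2.75 to 6.72 ± 0.506 CPM (SD, n = 2) and so fell by 68.5%. The log2 fold change of -1.53 ± 0.12 (SE, limma adjusted p = 1.2e-10) was larger in size than that of 96.7% of all genes tested. An antisense gene overlaps 73 exon bases of Optn and read at most 0.196 CPM.

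Bnip3l read 269 and 291 CPM in control and 229 CPM in both overexpression libraries (log2 fold change -0.29 ± 0.04, limma adjusted p = 1e-06). The row of its processed pseudogene, which could share reads with it, read 1.94 and 2.34 CPM in control and 1.51 and 1.69 CPM with overexpression. Nbr1, a receptor that acts together with p62 on ubiquitinated aggregates, read 334 and 331 CPM in control and 273 and 277 CPM with overexpression (-0.27 ± 0.03, limma adjusted p = 4.1e-07). Calcoco1, a receptor for the endoplasmic reticulum and Golgi, read 246 and 235 CPM in control and 209 and 205 CPM with overexpression (-0.22 ± 0.04, limma adjusted p = 2.8e-05). The overexpression means of these 3 genes stood at 0.817 to 0.86 of the control means. Tax1bp1, a ubiquitin-binding receptor, read 219.7 and 213 CPM in control and 193 and 206 CPM with overexpression, with a log2 fold change of -0.11 ± 0.04 (limma adjusted p = 0.015). That call did not hold without control 1 (adjusted p = 0.1), without overexpression 1 (0.21) or with the columns rescaled to equal totals (0.086).

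Sqstm1, the p62 gene and a scaffold in NF-kB and NRF2 signalling, was the most abundant member per kilobase. It read 1768 and 1704 CPM in control and 1695 and 1686 CPM with overexpression. The difference did not pass the test (log2 fold change -0.04 ± 0.03, 95% interval -0.11 to 0.03, limma adjusted p = 0.32). At 517 CPM per kilobase of exon in control it stood above Gabarap (114) and Vmp1 (111.5), which lay close together and at 155 each with the longest transcript as length. Atg16l2 (1.6) and Atg9b (1.63) were the lowest in control. Summed over the 6 receptor genes, of which Sqstm1 was the largest part, the level was 2860 and 2794 CPM in control and 2605 and 2610 CPM with overexpression.

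**Figure D4:**
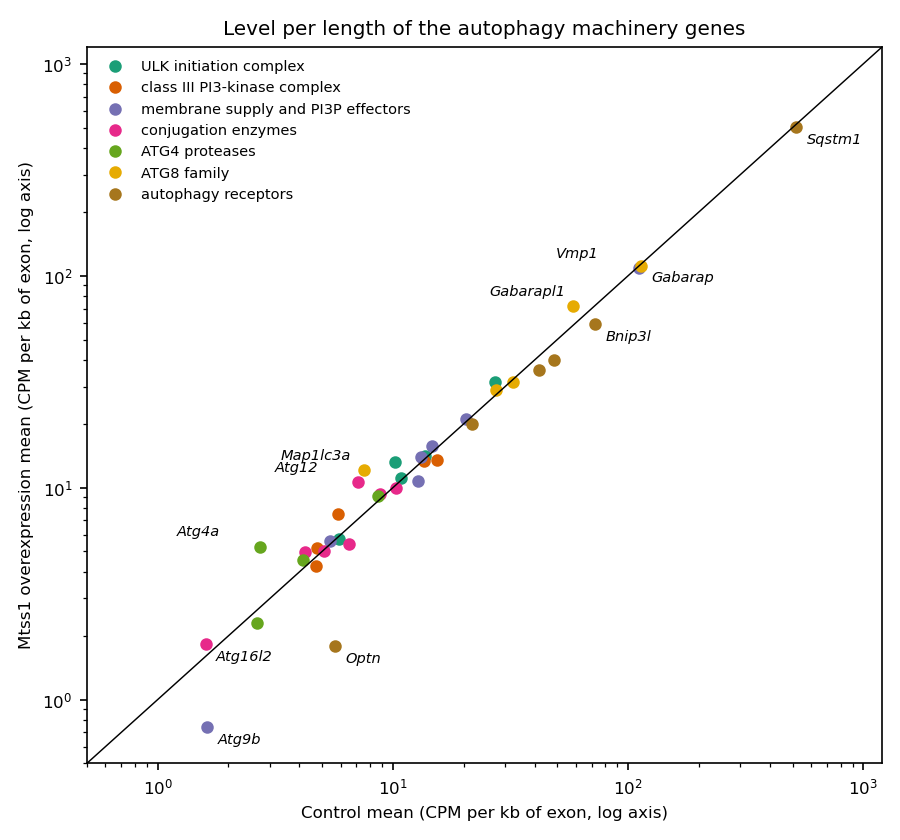
Mean level of each gene (CPM per kilobase of exon, both axes logarithmic) in control (horizontal) and Mtss1 overexpression (vertical), coloured by role, with the line of equal level. Levels run from 1.6 (Atg16l2) to 517 (Sqstm1) in control, and Optn and Atg9b lie below the line while Atg4a, Map1lc3a and Atg12 lie above it.

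The rest of the pathway was described from lists of further autophagy genes. Of 15 tested genes for autophagosome tethering and fusion, 8 were lower, 2 higher and 5 did not pass, with a median log2 fold change of -0.12. The 66.7% called is close to the 66.1% of all genes tested. Vps33a, a subunit of the HOPS tether, fell from 49.3 to 32.7 CPM (group means, -0.58 ± 0.06), and Plekhm1 and Rab7, an adaptor and a GTPase of late endosomes, fell by 0.43 and 0.32 on the log2 scale. Rubcn, which encodes the inhibitor Rubicon, rose from 56.4 to 74.3 CPM (0.39 ± 0.05). Tecpr1, a tethering factor, rose by 0.50.

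Of 21 other cofactors and receptors, 7 were lower, 4 higher and 10 did not pass, with 52.4% called against 66.1% of all genes tested. Bnip3, the mitophagy receptor closest to Bnip3l, read 128 and 144 CPM in control and 64.6 and 68.1 CPM with overexpression (log2 fold change -1.02 ± 0.05, limma adjusted p = 1.3e-13). The WIPI family gene Wdr45 fell from 55.5 to 31.4 CPM (-0.80 ± 0.06), and Wdfy3, a scaffold for aggregate clearance, by 0.37. The 3 largest rises were Ccpg1, a receptor for the endoplasmic reticulum (0.36), Tollip (0.33) and Sh3glb1 (0.27). The gene for the ubiquitin ligase Parkin was at 0 in every library.

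Of 29 nutrient and energy regulators of the pathway, 11 were lower, 8 higher and 10 did not pass, and the 65.5% called is close to the 66.1% of all genes tested. Sesn2, an inhibitor of mTORC1 induced by stress, fell from 41.5 to 16.1 CPM (-1.31 ± 0.08), whereas its paralogs Sesn1 (0.44 ± 0.08) and Sesn3 (0.49 ± 0.07) rose. Rragc and Ddit4, genes for a Rag GTPase and for the mTORC1 inhibitor REDD1, fell by 0.45 and 0.44 on the log2 scale, and Prkab2, an AMPK subunit gene, rose by 0.59. Of 8 transcription factor genes, 4 were higher, 3 lower and 1 did not pass, so 87.5% were called against 66.1% of all genes tested. Tfeb read 5.58 and 4.33 CPM in control and 8.0 and 9.05 CPM with overexpression (log2 fold change 0.68 ± 0.14, limma adjusted p = 2.4e-04). The largest changes in each direction among them were those of stress-response factors. Ddit3, the CHOP gene, rose from 131 to 226 CPM (0.78 ± 0.04), and Atf4, which acts upstream of it, fell from 565 to 364 CPM (-0.63 ± 0.03). Foxo1 rose by 0.58, and Tfe3, a relative of Tfeb named after its values were seen, by 0.34. Zkscan3, described as a repressor of autophagy genes, fell by 0.30, and Foxo3 by 0.17.

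Of 41 lysosome genes from the hand-written list with a test, 27 were lower, 8 higher and 6 did not pass, with a median log2 fold change of -0.19. Called genes made up 85.4% of them, against 66.1% of all genes tested. The median size of the change regardless of sign was 0.27, against 0.28 for all genes tested. The median control level was 151 CPM for the list and 32.7 CPM for all genes tested. The part of the level in the share called was not tested. The wider set of rows that carry the Gene Ontology term lysosome in the deposited table did not lean downward, with 100 lower and 90 higher of 248 tested (76.6% called) and a median log2 fold change of -0.02. Cln3, a lysosomal membrane protein gene, fell from 11.6 to 4.15 CPM (-1.31 ± 0.14), and the V-ATPase subunit genes Atp6v1c1 (148 to 81.8 CPM, -0.85 ± 0.04) and Atp6v1h (-0.61 ± 0.05) followed. Of the 11 V-ATPase subunit genes in the list, a subset chosen after the values were seen, 8 were lower and none higher, where 34.2% of all genes tested were lower. The cathepsin genes Ctsz (155 to 254 CPM, 0.72 ± 0.04) and Ctsd (0.33 ± 0.03) and the sialidase gene Neu1 (0.24 ± 0.06) had the largest rises.

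The deposited table also carries Gene Ontology terms, which gave a list not written by hand. The term autophagy was attached to 141 rows, 34 of them members. Of the 107 others, 89 were tested, and 21 were higher, 32 lower and 36 did not pass, so 59.6% were called. That share lies between the 43.6% of the members and the 66.1% of all genes, and no test of these differences was made.

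**Figure D5:**
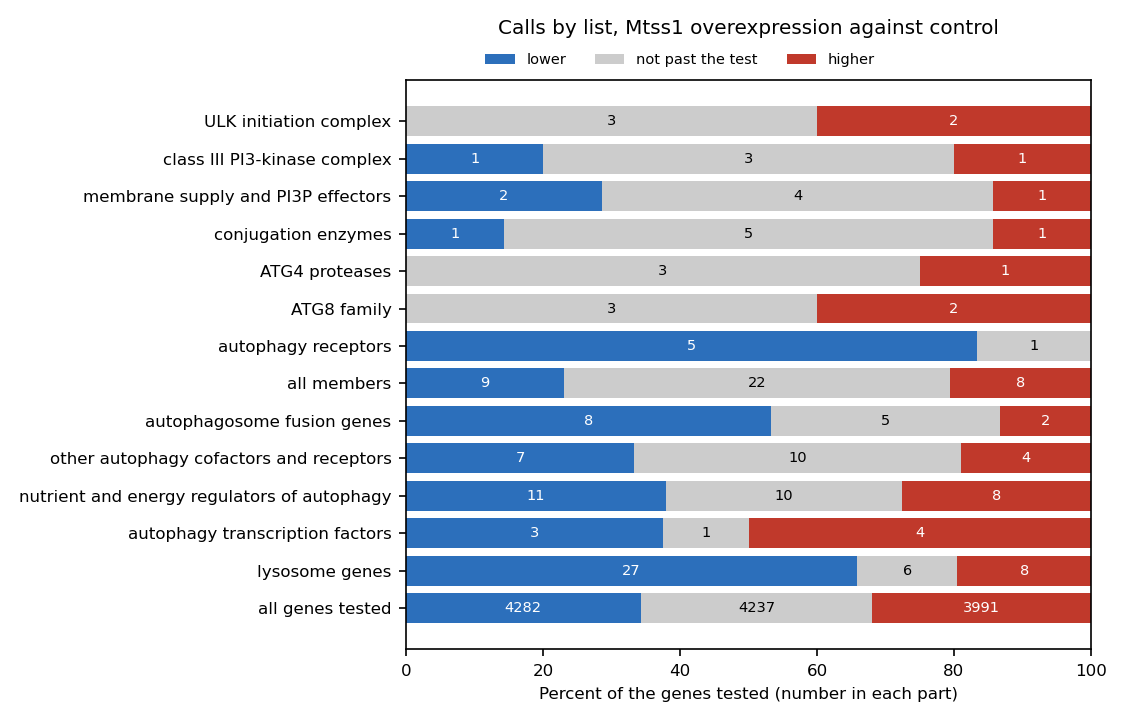
Percent of the tested genes in each list that were lower (blue), not past the test (grey) or higher (red) with Mtss1 overexpression, limma adjusted p under 0.05, with the number of genes in each part. Lower genes make up the largest part for the listed receptors (5 of 6) and the hand-written lysosome list (27 of 41). The same holds for the fusion genes (8 of 15), the nutrient and energy regulators (11 of 29) and all genes tested (4282 of 12510). Of the 39 members 22 are grey, against 4237 of all 12510 genes.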

How the data were processed

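Total RNA of 4 Py8119 libraries (2 control, 2 Mtss1 overexpression) was extracted with Trizol and read as paired ends, per the labels' protocols. FastQC 0.11.2, STAR, RSEM and build mm10 are named in the submitters' processing notes, with no settings. The deposited values were taken as CPM, a unit read from the values, and the sources used here do not say what scaled them. Columns sum to 1009970 and 1016225 in control and to 982877 and 991293 with overexpression. Dividing by the CPM of 1 read gave whole reads within 0.005 for 79.6% to 80.5% of nonzero values, so the values were kept as normalized. A count of 3 reads corresponds to 0.138 to 0.189 CPM.

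limma 3.58.1 in R 4.3.3 (lmFit, eBayes with a mean-dependent prior, 2 residual and 20.0 prior degrees of freedom) was fitted to log2(CPM + 1) over all genes that reached 1 CPM in 2 or more libraries. Benjamini-Hochberg adjustment ran over all genes tested, with a threshold of 0.05. Fold changes on this scale understate the change of low genes. The steps were tested on simulated data. Replicates differed by more than sampling noise (median chi-square 2.03 and 1.77 times the Poisson value). Coordinates, exon lengths and overlaps come from GENCODE M21 of the same build. The members and lists were chosen with earlier results of these data known. Every member is named, with library values for those past the test and for the ATG8 genes, Ulk1, Becn1, Atg5, Atg7 and Sqstm1; of the other lists, up to 3 genes with the largest change past the threshold in each direction are named. Alternatives were other scalings, filters, pseudocounts of 0.1 and 5, limma-voom on recovered reads, a replicate block, a threshold of 0.01 and the omission of single libraries.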

Additional observations from a re-analysis of the deposited data

How the results depend on the processing

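Over 13 alternatives, between 6 and 9 members were higher and between 8 and 10 lower. Leaving out single libraries gave 7 to 8 higher and 8 to 10 lower, with 3317 to 3634 genes higher and 3621 to 3971 lower over the whole table. The median log2 fold change of the members was -0.014 to 0.034 without single libraries. It was negative, -0.014, without overexpression 2, so its sign is not settled. Calls that changed were those of Atg101, Wipi2, Tax1bp1, Pik3r4, Vmp1, Atg16l2, Atg4b and Atg9a. Without a filter Atg101 (adjusted p = 0.066), Wipi2 (0.055) and Tax1bp1 (0.081) did not pass, and at an adjusted p of 0.01 Wipi2 and Tax1bp1 were not called; the cause was not tested. No called member changed sign. With the longest transcript in place of all exons Gabarap held 47.8% of the ATG8 family in control, against 47.5%. The replicate number does not pair the libraries in the labels, and the deviations of same-numbered libraries correlated across genes with r = -0.02. With the replicate block 8 members were higher and 9 lower, the same genes, and 4040 and 4337 genes were called in place of 3991 and 4282. For members that did not pass, the 95% intervals reached from -0.39 (Atg4d) to 0.47 (Atg10) on the log2 scale, which limits what can be said of them.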
